A study of Sus scrofa with 41 samples.

Results

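The SLC25 genes code for the mitochondrial carriers, a family of related membrane proteins that move metabolites, nucleotides and cofactors between the cytosol and the mitochondrial matrix. They were taken as every gene of the deposited tables whose pig Ensembl symbol starts with SLC25A and a number, which gave 41 of 25880 genes. The tables hold read pairs per gene in the psoas major, a loin muscle, of 41 uncastrated male pigs, 13 Danbred Duroc and 28 Danbred Landrace. The labels name no genetic alteration and no drug treatment. All pigs came from a commercial breeding station, where they ate a cereal and soybean feed while feed intake and growth were recorded. The feed conversion ratio (FCR), the feed eaten per growth, ran from 1.83 to 2.18 in the Duroc pigs and from 1.92 to 2.25 in the Landrace pigs. The Duroc pigs were 131 to 156 days old at sampling and the Landrace pigs 147 to 166 days, and the RNA integrity number (RIN) of their samples ran from 7.0 to 8.8 and from 6.5 to 8.3. The design asks which carrier genes differ with FCR, with breed, with RIN and with age. Each pig gave a single library, and the pigs fell into 5 slaughter batches, of which the first held a single Duroc pig and the others 3, 2, 3 and 4 Duroc beside 12, 7, 2 and 7 Landrace pigs.

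Each library held between 22188911 and 25954816 counts on genes. The libraries with the fewest were Landrace pig 27, with a RIN of 6.6, and Duroc pig 10, with a RIN of 7.0, and 69.9% to 80.9% of the pairs of each library were counted on a gene. The tissue markers were those of muscle, with summed levels of 19989 to 71735 CPM, counts scaled to a common library size, over 5 fast fibre genes and 1526 to 18489 CPM over 6 slow fibre genes. The markers of other cell types had sums of 562 to 12361 CPM for 6 fibroblast genes, 29.0 to 160 CPM for 4 endothelial genes and 111 to 444 CPM for 8 leukocyte genes, and no gene of these lists was at 0 in all pigs. In bulk muscle, fewer cells of a type and less RNA per cell cannot be told apart.

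The carriers sit in the inner mitochondrial membrane, with a few exceptions in the outer membrane and the peroxisome. In muscle, the ADP/ATP carriers exchange ATP made in the matrix for ADP from the contracting fibre, and the phosphate carrier supplies the phosphate for ATP synthesis. The aspartate/glutamate and 2-oxoglutarate/malate carriers form the membrane steps of the malate-aspartate shuttle, which brings the reducing equivalents of cytosolic NADH into the matrix, and the carnitine/acylcarnitine carrier brings in fatty acids for oxidation.

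Together the 41 carrier genes with a symbol took 0.199% of the counts on genes. Their summed level was 1975 CPM in the median pig, 1317 CPM in the lowest pig and 2858 CPM in the highest. Few genes made up most of this sum. SLC25A4, the ADP/ATP carrier of heart and skeletal muscle, gave 43.6% of the SLC25 counts, and SLC25A3, the phosphate carrier, gave 18.1%. With SLC25A34, SLC25A6 and SLC25A12 they came to 79.8%. These are shares of counts and not of molecules, since gene lengths were not used. Expression filtering kept 34 of the 41 genes, and each of these 34 had 5 or more counts in every pig. The 7 genes left out were SLC25A31, SLC25A35, SLC25A41, SLC25A44, SLC25A47, SLC25A48 and SLC25A53. SLC25A31, an ADP/ATP carrier known from the testis, and SLC25A44, a carrier of branched-chain amino acids, had 2 counts each over all 41 pigs. SLC25A41, SLC25A48 and SLC25A53 had 16, 25 and 26 counts over all pigs. SLC25A47, a carrier known from the liver, had 2 to 25 counts in each pig.

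The count of 1 further gene left out depended on how pairs were counted. STAR gave for each gene an unstranded count, used here, and a count for each strand. For 37 of the 41 genes the 2 strand columns added up to at most 1.02 times the unstranded count. The exceptions were SLC25A35 (16 pairs over all pigs in the unstranded column and 18222 in the strand columns), SLC25A11 (1347 and 3947), SLC25A39 (20327 and 41676) and SLC25A21 (662 and 782). An unstranded count leaves out a pair that falls on genes of both strands. Whether the pairs found only in the strand columns came from SLC25A35 or from a gene on the other strand was not tested, so its low unstranded count cannot be read as a low level. The libraries do not mark strand, since among members with 1000 counts or more the share of either strand lay between 43.5% and 55.8%. In the strand columns, pairs of these genes and of genes on the other strand therefore cannot be told apart.

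**Figure D1:**
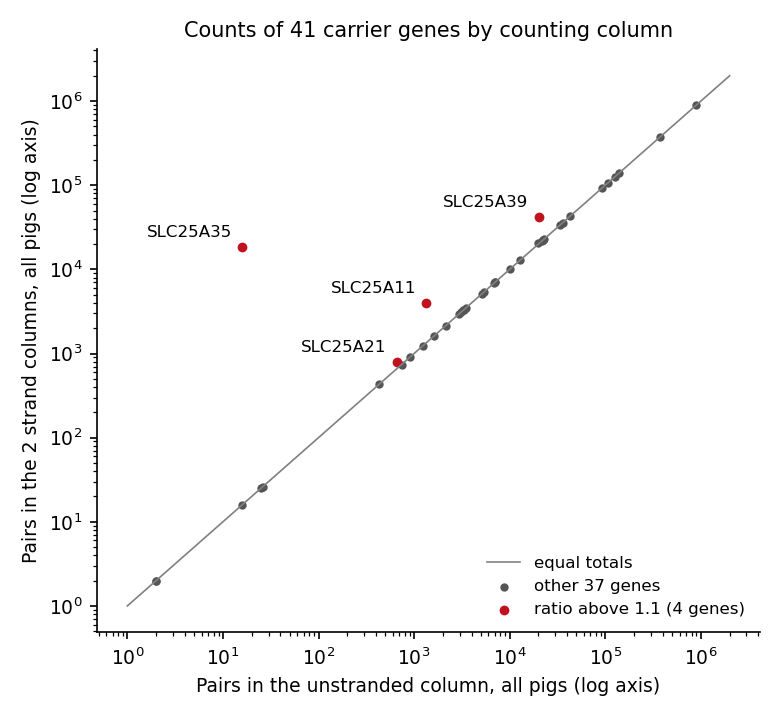
Read pairs over all 41 pigs on each of the 41 SLC25 genes, in the unstranded column (horizontal, log axis) and in the sum of the 2 strand columns (vertical, log axis), with a grey line of equal totals. The 4 red genes lie above the line, SLC25A35 farthest with 16 against 18222 pairs, and the 37 grey genes lie within a ratio of 1.02.

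Breed was the first comparison. In the joint model with FCR, RIN, age and batch, 17 of the 34 carrier genes tested differed between the breeds at a false discovery rate (FDR) under 0.1, against 33.1% of all 11146 genes tested. Of the 17, 12 were lower and 5 were higher in the Landrace pigs, while the background was 17.5% lower and 15.6% higher. The median coefficient of the 34 genes was −0.10 on the log2 scale, Landrace minus Duroc, beside −0.0024 over all genes. The breed groups of all 17 genes overlapped. When counts were scaled by library size alone, the median over all genes moved to −0.18 for breed and to 0.30 for RIN. The split then became 1 higher and 16 lower, against 37.1% of all genes called under that scaling, 4.79% higher and 32.3% lower. SLC25A26, SLC25A38 and SLC25A43 were among those that lost their calls there.

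The ADP/ATP carriers were the first group. SLC25A4, SLC25A5 and SLC25A6 each exchange ADP for ATP, and all 3 were lower in the Landrace pigs. SLC25A6 (ENSSSCG00000033673) ran from 94.0 to 192 CPM in the Duroc pigs, with a median of 151 CPM, and from 78.8 to 142 CPM in the Landrace pigs, with a median of 107 CPM. All 28 Landrace pigs were below the Duroc median, and 6 were below every Duroc pig. The coefficient was −0.57 (SE 0.12, FDR = 0.00114, edgeR), or 0.674 times the Duroc level. SLC25A5 (ENSSSCG00000012623, chromosome X, 97919295 to 97922245 in Sscrofa11.1) ran from 2.74 to 5.07 CPM in the Duroc pigs (median 3.19) and from 1.35 to 3.67 CPM in the Landrace pigs (median 2.71). Its groups overlapped, although 15 of the 28 Landrace pigs were below every Duroc pig. The coefficient was −0.68 (SE 0.16, FDR = 0.0020).

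SLC25A4 (ENSSSCG00000015790, chromosome 15, 46193498 to 46197989), the most abundant of the 3 by counts, had 785 to 1413 CPM in the Duroc pigs (median 967) and 526 to 1170 CPM in the Landrace pigs (median 812). The groups overlapped, and 13 of the 28 Landrace pigs were below every Duroc pig. The coefficient was −0.26 (SE 0.11, FDR = 0.0827). This was the weakest of the 17 calls: it was lost in 17 of the 41 fits that left out 1 pig each, with an FDR of 0.101 to 0.324 and coefficients between −0.32 and −0.17 over all 41 fits. The call was also lost with RIN left out (−0.10, FDR = 0.628), with RLE size factors (−0.25, FDR = 0.1001) and without a filter (−0.25, FDR = 0.151). Since the 3 genes are close copies of each other, pairs that align to more than one of them were not counted. SLC25A3 (ENSSSCG00000000886, chromosome 5, 85284405 to 85292336), the phosphate carrier, had 308 to 479 CPM in the Duroc pigs (median 371) and 241 to 458 CPM in the Landrace pigs (median 344). Its coefficient of −0.09 (95% interval −0.27 to 0.10, FDR = 0.518) did not pass the test, and it was −0.26 (FDR = 0.0250) with library size only. The ATP-Mg/phosphate carriers SLC25A23, SLC25A24 and SLC25A25, which respond to calcium and set the adenine nucleotide content of the matrix, did not pass either, with coefficients of 0.07, −0.10 and −0.09. SLC25A25 spread most among them, from 13.4 CPM in Landrace pig 13 to 157 CPM in Duroc pig 4. Without adjustment the means of log2 CPM differed by −0.51 for SLC25A24 and −0.52 for SLC25A25, so their small coefficients rested on the adjustment. For SLC25A24 the Landrace mean was the lower one in all 4 batches that held both breeds.

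All 5 tested carriers of the amino acid group differed between the breeds, 4 of them lower and 1 higher in the Landrace pigs, against 33.1% of all genes. SLC25A22 (ENSSSCG00000012844, chromosome 2, 491288 to 498773), a glutamate carrier, had the smallest p of the 34 genes and the coefficient farthest from 0. It ran from 2.19 to 7.22 CPM in the Duroc pigs (median 3.60) and from 1.56 to 4.62 CPM in the Landrace pigs (median 2.61). Both groups were wide, and 22 of the 28 Landrace pigs were below the Duroc median. The coefficient was −0.93 (SE 0.19, FDR = 0.000529), or 0.523 times the Duroc level. The means of log2 CPM differed by −0.43 without adjustment for the other covariates. SLC25A15 (ENSSSCG00000009373, chromosome 11, 15494176 to 15551172), the ornithine carrier of the urea cycle, had 0.899 to 2.15 CPM in the Duroc pigs (median 1.39) and 0.577 to 1.54 CPM in the Landrace pigs (median 1.097). Its coefficient was −0.69 (SE 0.18, FDR = 0.00649).

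SLC25A12 and SLC25A13 are the aspartate/glutamate carriers of the malate-aspartate shuttle, the former the main one of muscle and the latter known from the liver. SLC25A12 (ENSSSCG00000015949, chromosome 15, 77895935 to 78021930) had 88.1 to 135 CPM in the Duroc pigs (median 117) and 66.0 to 140 CPM in the Landrace pigs (median 93.4). The groups overlapped, with 24 of 28 Landrace pigs below the Duroc median and 1 above every Duroc pig. The coefficient was −0.40 (SE 0.12, FDR = 0.0106). SLC25A13 (ENSSSCG00000015336, chromosome 9, 75781421 to 75980606) had 1.60 to 7.89 CPM in the Duroc pigs (median 3.33) and 0.694 to 7.01 CPM in the Landrace pigs (median 2.10). The highest pig of each breed, Duroc pig 8 and Landrace pig 8, stood above the rest. The coefficient was −0.78 (SE 0.29, FDR = 0.0449), and it was −0.70 (FDR = 0.120) without Duroc pig 3.

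SLC25A38 (ENSSSCG00000029708, chromosome 13, 24030571 to 24043866), which imports glycine for haem synthesis, went the other way. Its Duroc levels were 3.16 to 6.84 CPM (median 5.25) and its Landrace levels 4.64 to 10.2 CPM (median 7.33). Of the 28 Landrace pigs 27 were above the Duroc median and 21 above every Duroc pig, the most pigs outside the Duroc range for any of the 34 genes. The coefficient was 0.38 (SE 0.10, FDR = 0.00699). In all of batches 2 to 5 the Landrace mean was the higher one, by 0.40 to 0.60 on the log2 scale.

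**Figure D2:**
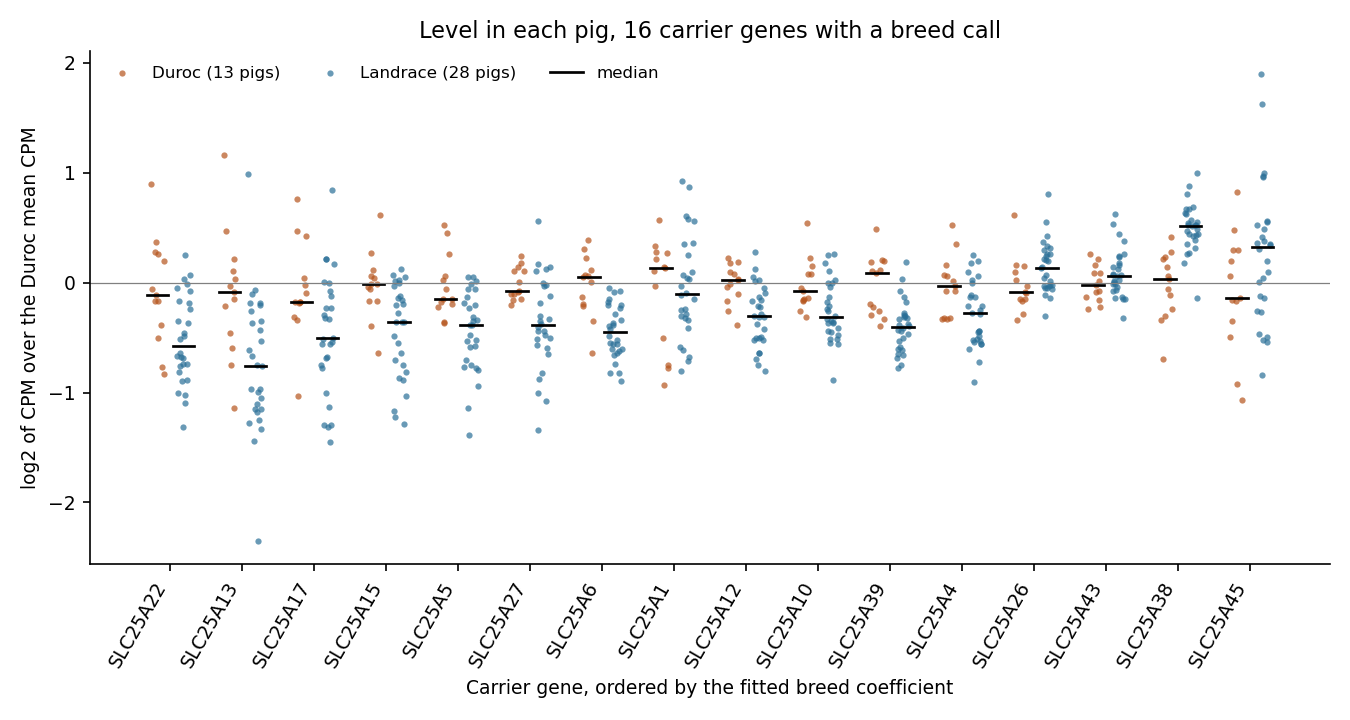
Level in each pig of 16 of the 17 SLC25 genes called for breed, as log2 of CPM over the Duroc mean CPM of that gene (0 is the Duroc mean), with a point per pig (13 Duroc, 28 Landrace) and a black bar at each group's median. From left to right the fitted coefficient goes from −0.93 for SLC25A22 to 0.79 for SLC25A45, and the points of the breeds overlap for every gene.

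Among the carriers grouped as di- and tricarboxylate, 2 of 5 were lower in the Landrace pigs, near the 33.1% of all genes called. SLC25A34 was placed in this group although its substrate is not established. SLC25A1 (ENSSSCG00000010116), the citrate carrier, had a coefficient of −0.42 (SE 0.17, FDR = 0.0607), but its unadjusted means of log2 CPM differed by 0.03, with 5.15 to 14.6 CPM in the Duroc pigs (median 10.8) and 5.62 to 18.7 CPM in the Landrace pigs (median 9.13). The call thus rested on the adjustment. With RIN left out of the model the coefficient of SLC25A1 was −0.19 (FDR = 0.522), and the batch means had the sign of the coefficient in 2 of 4 batches. The call of SLC25A1 was also lost without Duroc pig 1 (FDR = 0.121), Duroc pig 3 (0.115) or Landrace pig 10 (0.107). SLC25A10 (ENSSSCG00000033620), the dicarboxylate carrier, had 2.87 to 5.18 CPM in the Duroc pigs (median 3.38) and 1.92 to 4.27 CPM in the Landrace pigs (median 2.86). Its coefficient was −0.38 (SE 0.14, FDR = 0.0467), and −0.26 (FDR = 0.164) without Duroc pig 1.

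SLC25A11, the 2-oxoglutarate/malate carrier, was just outside the threshold with a coefficient of −0.49 (FDR = 0.1004). SLC25A11 passed with DESeq2, limma, a filter of 5 counts in every pig, batch as a number, library size only or the pigs with a RIN below 7 left out (FDR of 0.0162 to 0.0978), and in 10 of the 41 fits that left out 1 pig each. With the strand columns, which count 2.93 times as many pairs on it, the coefficient of SLC25A11 was −0.16 (FDR = 0.489). SLC25A34, a carrier without an established substrate, was the next by counts after SLC25A4 and SLC25A3. It ran from 82.3 to 211 CPM in the Duroc pigs (median 169) and from 38.8 to 238 CPM in the Landrace pigs (median 108), and its coefficient of −0.35 (95% interval −0.98 to 0.29, FDR = 0.441) did not pass.

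Of the 10 carriers of cofactors, nucleotides and the antioxidant glutathione, 2 were higher, 2 were lower and 6 were not called, near the 33.1% of all genes called. SLC25A26 (ENSSSCG00000011498), which brings S-adenosylmethionine into the matrix, was higher in the Landrace pigs with a coefficient of 0.22 (SE 0.085, FDR = 0.0482), and 0.20 (FDR = 0.103) without Duroc pig 5. SLC25A17 (ENSSSCG00000000072), a cofactor carrier of the peroxisome, was lower in the Landrace pigs with −0.73 (SE 0.24, FDR = 0.0221). The unadjusted difference of SLC25A17 was −0.40, and with age left out its coefficient was −0.46 (FDR = 0.105). SLC25A39 (ENSSSCG00000030167), which imports glutathione, was lower with −0.33 (SE 0.11, FDR = 0.0234). Its groups overlapped, from 17.9 to 32.9 CPM in the Duroc pigs (median 25.0) and from 13.7 to 26.8 CPM in the Landrace pigs (median 17.7), with 27 of 28 Landrace pigs below the Duroc median. The coefficient of SLC25A39 was −0.33 (FDR = 0.0233) with the strand columns too, but −0.21 (FDR = 0.200) with RIN left out, where the call was lost. SLC25A36, a carrier of pyrimidine nucleotides, had medians of 24.6 CPM in the Duroc and 14.0 CPM in the Landrace pigs and an unadjusted difference of −0.99. In the joint model its coefficient was −0.56 (95% interval −1.07 to −0.04, FDR = 0.103). SLC25A36 passed with DESeq2, with library size only, with RIN left out or with the pigs with a RIN below 7 left out (FDR of 0.0328 to 0.0981), with age left out (−0.97, FDR = 0.00482) and in 8 of the 41 fits that left out 1 pig each.

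Of the remaining carriers, SLC25A27 (ENSSSCG00000001720), an uncoupling-protein-like carrier best known from the brain, was lower in the Landrace pigs. The Duroc levels lay close together at 6.64 to 9.03 CPM (median 7.26), while the Landrace levels spread from 3.02 to 11.3 CPM (median 5.85), and 18 of the 28 Landrace pigs were below every Duroc pig. The coefficient of SLC25A27 was −0.57 (SE 0.17, FDR = 0.0107). SLC25A45 (ENSSSCG00000012993) and SLC25A43 (ENSSSCG00000012624, chromosome X, 97868804 to 97906771), both little characterised, were higher in the Landrace pigs. SLC25A45 had 2.69 to 10.0 CPM in the Duroc pigs (median 5.13) and 3.17 to 21.1 CPM in the Landrace pigs (median 7.08), with a coefficient of 0.79 (SE 0.26, FDR = 0.0239). The unadjusted difference of SLC25A45 was 0.35, and with age left out its coefficient was 0.43 (FDR = 0.212). SLC25A43 had 10.0 to 14.1 CPM in the Duroc pigs (median 11.6) and 9.43 to 18.2 CPM in the Landrace pigs (median 12.3), with a coefficient of 0.31 (SE 0.085, FDR = 0.00781). The unadjusted difference of SLC25A43 was 0.099, and its coefficient was 0.081 (FDR = 0.628) with batch left out and 0.13 (FDR = 0.317) with library size only, so the call rested on the adjustment and the scaling. SLC25A43 and SLC25A5 are neighbours, 12523 bases apart on the X chromosome, and were called in opposite directions. SLC25A20, the carnitine/acylcarnitine carrier, and SLC25A28, the mitoferrin that imports iron, were not called, with coefficients of 0.07 (95% interval −0.20 to 0.34) and 0.08 (−0.15 to 0.32).

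Slaughter batch was not balanced between the breeds, so the difference of mean log2 CPM was taken within each of the 4 batches that held both. Of the 17 called genes, 13 had the sign of the coefficient in all 4 batches. SLC25A4, SLC25A10 and SLC25A45 had it in 3 batches and SLC25A1 in 2. With batch left out of the model 12 of the 17 were called, and SLC25A1, SLC25A15, SLC25A26 and SLC25A43 were among those that were not. Markers of other cell and fibre types also differed between the breeds. All 4 endothelial markers were lower in the Landrace pigs (summed level 53.6 to 160 CPM in Duroc and 29.0 to 136 CPM in Landrace), as were 2 of 3 smooth muscle markers (74.4 to 257 and 74.1 to 215 CPM), 2 of 6 fibroblast markers (572 to 4253 and 562 to 12361 CPM), 1 of 2 adipocyte markers (9.88 to 117 and 10.9 to 153 CPM) and 1 of 8 leukocyte markers (111 to 374 and 124 to 444 CPM). The other adipocyte marker and 4 of the 8 leukocyte markers had coefficients above 0. The median summed level was higher in Landrace for the adipocyte list (22.3 CPM in Duroc and 34.7 CPM in Landrace) and the leukocyte list (188 and 229 CPM). Of the fibre markers, 4 of 5 fast fibre genes were higher in the Landrace pigs (27809 to 52529 CPM in Duroc and 19989 to 71735 CPM in Landrace) and 2 of 6 slow fibre genes were lower (4623 to 14877 and 1526 to 18489 CPM), all 6 with library size only. Neither of 2 erythroid markers was called (6.22 to 91.4 and 12.4 to 314 CPM). The part of these cell and fibre types in the carrier differences was not tested.

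The enzymes that use the substrates of the carriers were described from a list of 23 matrix and shuttle enzymes, of which 22 were tested. Of these, 11 differed between the breeds, 9 lower and 2 higher in the Landrace pigs, against the 33.1% of all genes, and 14 were lower and 2 higher with library size only. The cytosolic enzymes of the malate-aspartate shuttle were lower, GOT1 with a coefficient of −0.72 (SE 0.17, FDR = 0.00214) and MDH1 with −0.55 (SE 0.16, FDR = 0.0131), beside the lower SLC25A12 and SLC25A13. Their matrix partners GOT2 and MDH2 had coefficients of −0.14 and −0.16 and were not called (FDR = 0.306 and 0.241). Both enzymes of the glycerol phosphate shuttle, which carries reducing equivalents without an SLC25 carrier, were higher, GPD1 with 0.47 (FDR = 0.0051) and GPD2 with 0.62 (FDR = 0.0049). The unadjusted medians of GPD2 were 68.3 CPM in the Duroc and 70.2 CPM in the Landrace pigs, so its call rested on the adjustment. The carnitine palmitoyltransferases on either side of SLC25A20 were lower, CPT1B with −0.58 (FDR = 0.0112) and CPT2 with −0.50 (FDR = 0.0593). The unadjusted medians of CPT2 were 27.5 CPM in the Duroc and 25.5 CPM in the Landrace pigs, so much of its coefficient came with the adjustment. Of 15 tested genes for other transport across the mitochondrial membranes 4 were called, 1 higher (SFXN5, 0.65) and 3 lower (SFXN3, ABCB8 and LETM1), and the uncoupling proteins UCP2 and UCP3 were not. The call of SFXN3 too rested on the adjustment, with unadjusted medians of 1.19 CPM in the Duroc and 1.40 CPM in the Landrace pigs. UCP3, although not called, had unadjusted medians of 112 CPM in the Duroc and 68.2 CPM in the Landrace pigs. Of the 28 Landrace pigs 25 were below its Duroc median and 15 below every Duroc pig. Of 12 tested genes for the import of carrier proteins, 3 were higher (TOMM22, TIMM29 and TIMM10B) and 2 lower (TOMM20 and AGK), while with library size only none was higher and 3 were lower. The unadjusted medians of AGK lay close together, at 4.85 CPM in the Duroc and 4.74 CPM in the Landrace pigs.

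**Figure D3:**
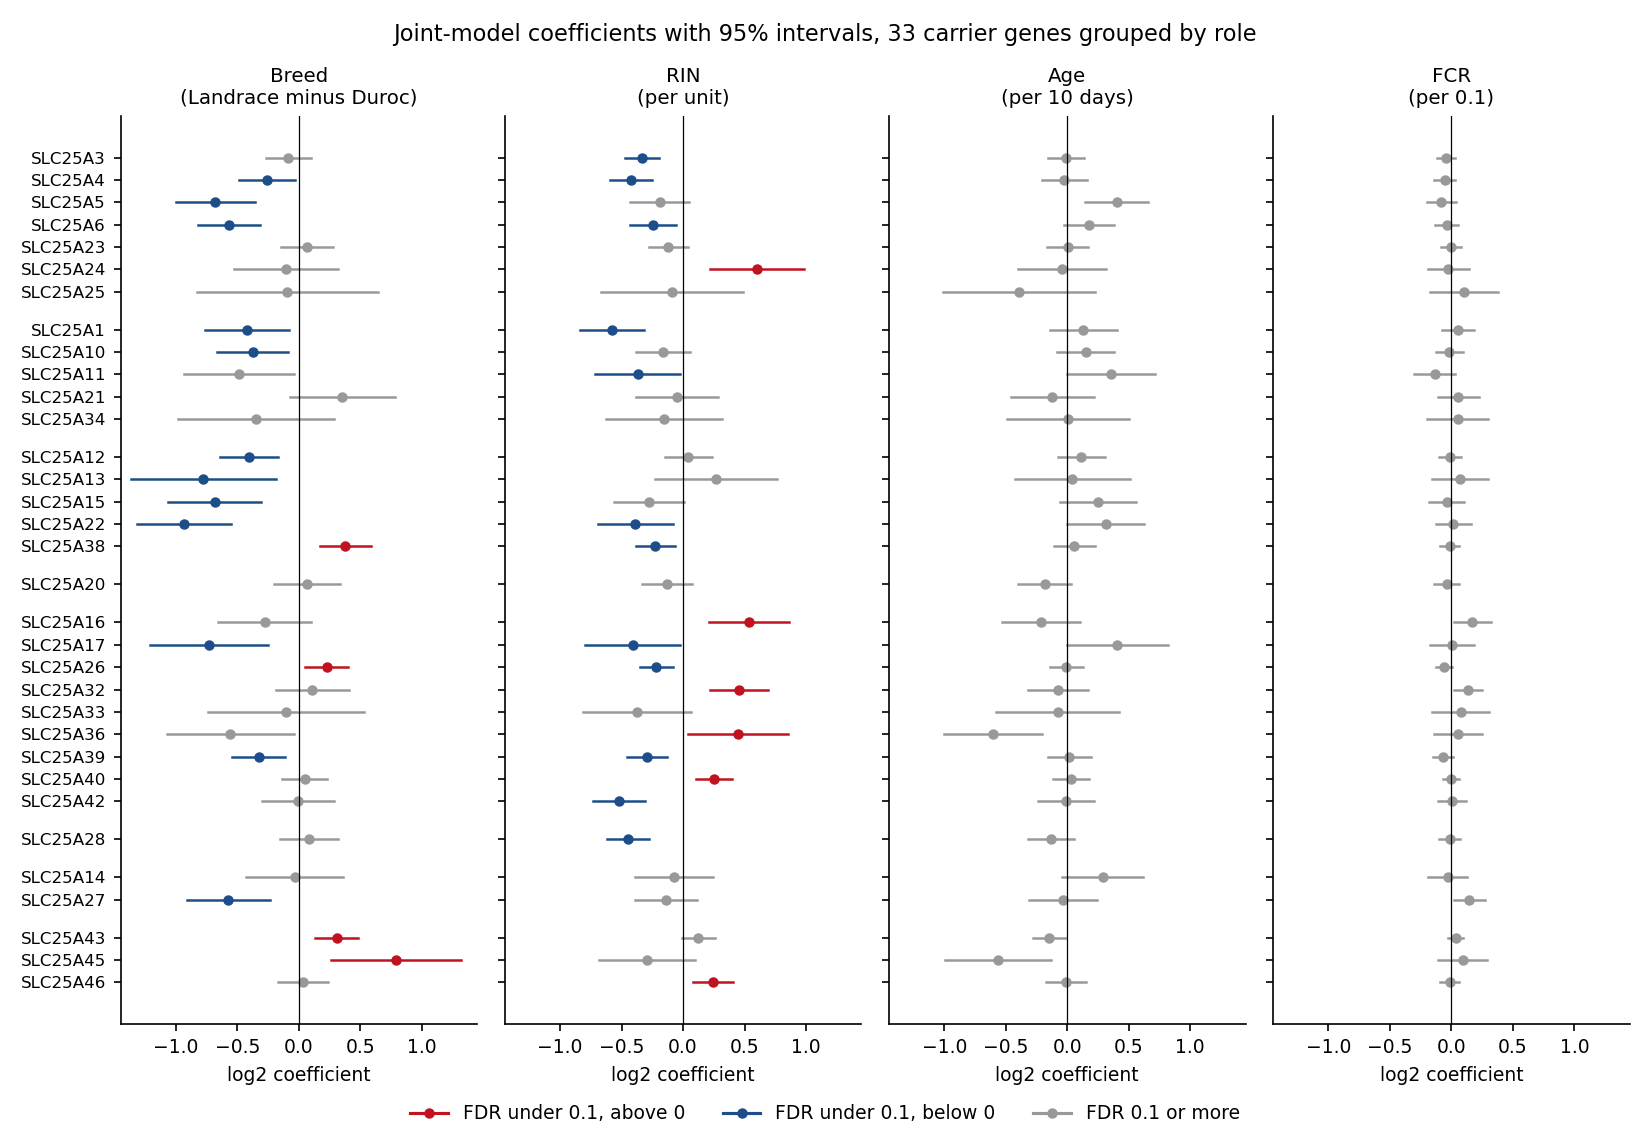
Coefficients of the joint model on the log2 scale (horizontal) with 95% intervals for 33 of the 34 tested SLC25 genes (vertical, grouped by role), for breed, RIN, age and FCR. Red and blue mark an FDR under 0.1 above and below 0. There are 16 coloured genes for breed, 18 for RIN and none for age or FCR.

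RIN was the covariate with most carrier calls in the joint model, but not in every alternative. With library size only 11 genes were called for RIN and 17 for breed, and without the pigs with a RIN below 7 these were 13 and 19. The RIN grades how intact the RNA of a sample is. Of the 34 genes 19 changed with RIN, 13 falling and 6 rising as RIN rose, against 51.8% of all genes (27.9% falling and 23.9% rising). The share is thus close to the background. SLC25A4 fell, with 692 to 1413 CPM (median 985) in the 15 pigs with a RIN under 8.0 and 526 to 1099 CPM (median 798) in the other 26 pigs. Its coefficient was −0.42 per unit of RIN (SE 0.084, FDR = 9.46e-05). SLC25A3 fell with −0.33 (SE 0.069, FDR = 0.000154), from a median of 433 CPM under a RIN of 8.0 to 339 CPM from there on. SLC25A28 had the smallest p, with −0.45 (SE 0.086), and medians of 26.6 and 19.6 CPM. SLC25A42, a carrier of coenzyme A, fell with −0.52 (SE 0.11), with medians of 23.5 and 17.1 CPM, and SLC25A1 fell with −0.58 (SE 0.13), with medians of 12.4 and 8.14 CPM. The genes that fell also included SLC25A39, SLC25A26, SLC25A38, SLC25A6, SLC25A22, SLC25A11 and SLC25A17, with coefficients between −0.41 and −0.22. Of these, SLC25A11 and SLC25A17 were called least firmly, since the call was lost in 23 and 18 of the 41 fits that left out 1 pig each, and with the strand columns the coefficient of SLC25A11 was 0.0075. The coefficient of SLC25A17 ran from −0.62 to −0.22 over these fits, lowest in size without Landrace pig 27, and its call was also lost with limma (FDR = 0.119), age left out (0.162), batch left out (0.181), no filter (0.196) and the strand columns (0.1504). SLC25A6 lost its call without Landrace pig 1 (FDR = 0.119) or Landrace pig 28 (0.132), and SLC25A22 without Duroc pig 10 (0.160) or Landrace pig 28 (0.109).

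The genes that rose with RIN were SLC25A24, SLC25A16, SLC25A32, SLC25A36, SLC25A40 and SLC25A46. SLC25A24, an ATP-Mg/phosphate carrier, rose with 0.60 per unit (SE 0.19, FDR = 0.00891), from 7.36 to 27.0 CPM (median 15.1) under a RIN of 8.0 to 11.6 to 55.9 CPM (median 22.5) from there on. SLC25A16, linked to coenzyme A, rose with 0.54 (SE 0.16, FDR = 0.00655), and SLC25A32, the folate and FAD carrier, with 0.45 (SE 0.12, FDR = 0.00189). For these 3 genes the lowest pig had a RIN of 7.0 or below. Landrace pig 27 had the lowest SLC25A24 and SLC25A16, and Duroc pig 10 the lowest SLC25A32 at 1.33 CPM. These are the 2 libraries with the fewest counts, and without both of them 12 of the 34 genes were called for RIN, 5 rising and 7 falling, against 36.6% of all genes (16.3% rising and 20.2% falling). The calls of SLC25A24 (0.40, FDR = 0.154), SLC25A26 (−0.12, FDR = 0.211) and SLC25A22 (−0.24, FDR = 0.306) were lost there, as were those of SLC25A6, SLC25A11, SLC25A17 and SLC25A38. Without the 2 pigs with a RIN below 7, 13 genes were called, 2 rising and 11 falling, against 35.6% of all genes (15.5% rising and 20.1% falling). Of the 6 rising genes SLC25A24 (0.34, FDR = 0.314), SLC25A16 (0.37, FDR = 0.178), SLC25A36 (0.37, FDR = 0.318) and SLC25A40 (0.17, FDR = 0.190) were then not called, and SLC25A32 and SLC25A46 were. Of the falling genes SLC25A6 (−0.19, FDR = 0.290) and SLC25A17 (−0.38, FDR = 0.229) were then not called. SLC25A36 lost its call without Landrace pig 1 (FDR = 0.310), Landrace pig 13 (0.108) or Landrace pig 26 (0.104). By role, 9 of the 10 cofactor carriers changed with RIN, 5 falling and 4 rising, as did 4 of 7 adenine nucleotide and phosphate carriers, 2 of 5 di- and tricarboxylate carriers, 2 of 5 amino acid carriers and none of the 2 uncoupling-protein-like carriers, against the 51.8% of all genes. Of the genes with most counts, SLC25A6 fell (−0.24), and SLC25A12 (0.04) and SLC25A34 (−0.16) were not called. With library size only the RIN coefficient of SLC25A12 was 0.35 (FDR = 0.0061).

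When scaled by library size alone, 11 genes were called for RIN, 10 rising and 1 falling, against 63.8% of all genes (55.8% rising and 7.91% falling). The median over the 34 genes was then 0.13 beside the 0.30 of all genes, and −0.18 beside −0.01 with TMM, so the median of the members was below that of all genes in both, while the sign of the RIN calls depended on the scaling. SLC25A6, SLC25A26, SLC25A38 and SLC25A39 had coefficients above 0 there, without a call. Of the genes called for both breed and RIN, SLC25A1, SLC25A4, SLC25A6, SLC25A17, SLC25A22 and SLC25A39 were lower in the Landrace pigs and fell with RIN. SLC25A26 and SLC25A38 were higher in the Landrace pigs and fell with RIN.

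Markers of fibre and other cell types changed with RIN as well. Of the fibre markers, 5 of 6 slow fibre genes fell (summed level 2991 to 18489 CPM under a RIN of 8.0 and 1526 to 11097 CPM from there on), and of the 5 fast fibre genes 3 fell and 2 rose (19989 to 71735 and 27809 to 52405 CPM). Both erythroid markers tested fell (6.22 to 314 and 11.0 to 80.2 CPM), as did 2 of 8 leukocyte markers (127 to 444 and 111 to 421 CPM) and 1 of 3 smooth muscle markers (74.1 to 215 and 74.4 to 257 CPM). Of 6 fibroblast markers 3 rose (562 to 12361 and 572 to 4855 CPM). None of 4 endothelial markers (29.0 to 160 and 53.6 to 156 CPM) and none of 2 adipocyte markers (10.9 to 69.5 and 9.88 to 153 CPM) was called. With library size only, 2 slow fibre genes and no smooth muscle marker fell, 2 leukocyte markers rose and 1 fell, and 2 endothelial, 4 fibroblast and 1 adipocyte markers rose. The ranges of the RIN groups overlapped for every list, and the part of these fibre and cell types in the RIN coefficients of the carriers was not tested.

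**Figure D4:**
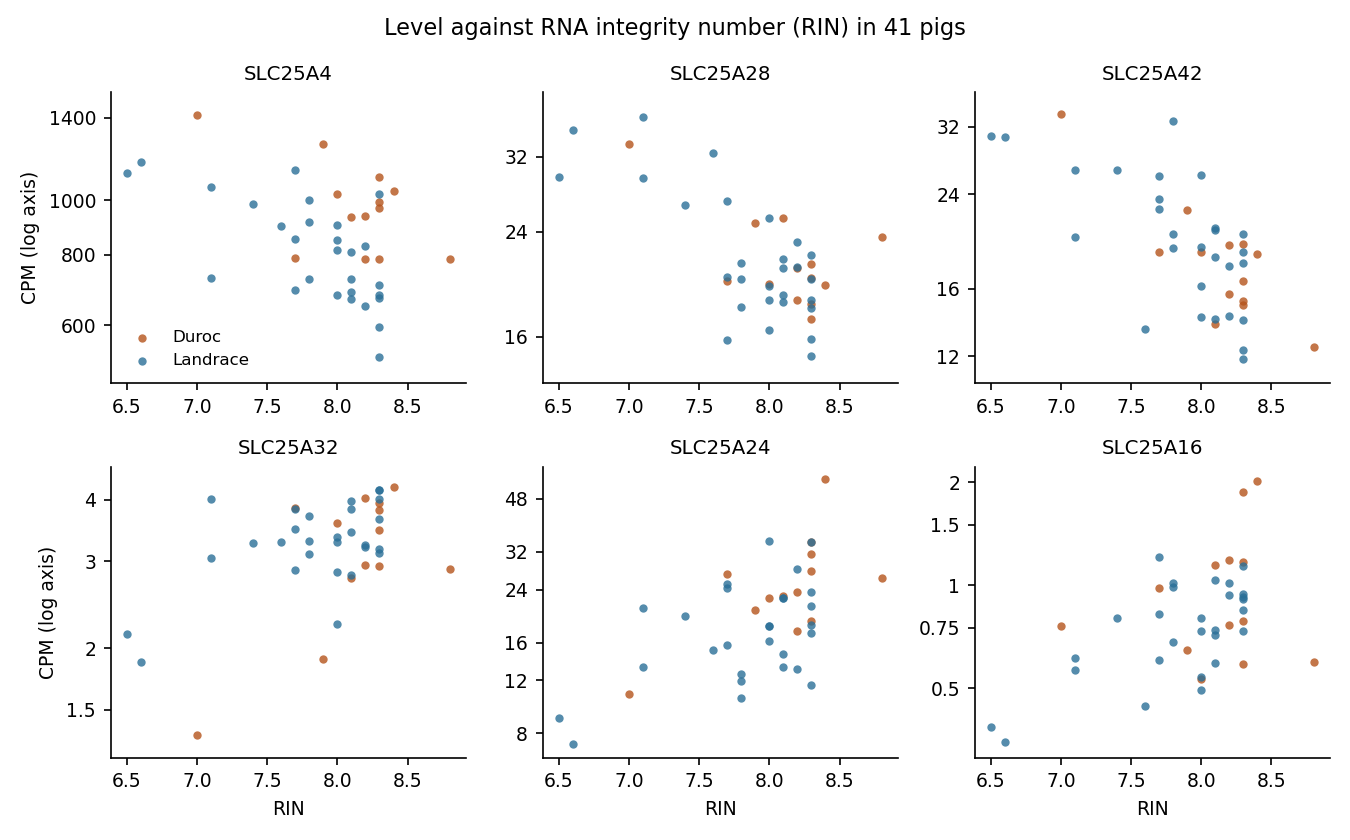
Level in CPM (vertical, log axis) against RIN (horizontal) of 6 SLC25 genes called for RIN, with a point for each of the 41 pigs coloured by breed. SLC25A4, SLC25A28 and SLC25A42 (top) were higher at low RIN, and SLC25A32, SLC25A24 and SLC25A16 (bottom) had their lowest pigs at a RIN of 7.0 or below.

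FCR, the trait of the study, gave no carrier call. None of the 34 genes passed the FDR threshold with edgeR, DESeq2 or limma. Of all genes, edgeR and limma called 0% and DESeq2 called 5 of 10765. With edgeR, 3 of the 34 had an unadjusted p under 0.05, against 8.68% of all genes. SLC25A32 had a coefficient of 0.13 per 0.1 of FCR (95% interval 0.02 to 0.25, p = 0.0181, FDR = 0.535). Its levels were 1.33 to 4.25 CPM (median 3.27) in the 20 pigs with an FCR under 2.08 and 1.87 to 4.19 CPM (median 3.28) in the other 21, so the raw levels of the groups overlapped with nearly the same median. SLC25A27 had 0.15 (0.02 to 0.27, p = 0.0240) and SLC25A16 had 0.17 (0.02 to 0.32, p = 0.0290), with an FDR of 0.535 and 0.547. The intervals of the 5 genes with most counts included 0. SLC25A4 had −0.05 (−0.14 to 0.03), SLC25A3 −0.04 (−0.11 to 0.03), SLC25A6 −0.04 (−0.14 to 0.06), SLC25A12 −0.01 (−0.10 to 0.08) and SLC25A34, with the widest interval of them, 0.05 (−0.20 to 0.30).

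Whether the FCR coefficient differed between the breeds was tested with the product of FCR and breed, with no call by edgeR among the 34 genes or among all genes (0%) and with 3 unadjusted p under 0.05, against 5.22% of all genes. The 3 were SLC25A36 with 0.45 (Landrace minus Duroc, 95% interval 0.09 to 0.81, p = 0.0161), SLC25A27 with 0.27 (p = 0.0269) and SLC25A17 with −0.39 (p = 0.0273), all with an FDR of 0.922. DESeq2 called 1 of all genes and none of the 34. Within the Duroc pigs none of 33 genes was called, and the smallest p was that of SLC25A17 (0.18 per 0.1, p = 0.0380, FDR = 0.786, edgeR with 5 residual degrees of freedom). Within the Landrace pigs none of 34 was called, and SLC25A27 (0.24, p = 0.00724, FDR = 0.827) and SLC25A32 (0.16, p = 0.0200) had an unadjusted p under 0.05. Across all genes edgeR called no gene in either breed (0%), and 5.37% and 5.50% had an unadjusted p under 0.05. DESeq2 called 10 of all genes in the Duroc and 4 in the Landrace pigs.

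Age at sampling gave no call among the carriers, against 1.76% of all genes, and 5 of the 34 had an unadjusted p under 0.05, against 16.0% of all genes. SLC25A5 had a coefficient of 0.40 per 10 days (SE 0.12, p = 0.00271, FDR = 0.113). SLC25A36 had −0.60 (SE 0.20, FDR = 0.126), and its median was 24.2 CPM in the 18 pigs younger than 154 days and 13.8 CPM in the other 23. SLC25A45 had −0.56 (SE 0.21, FDR = 0.186). SLC25A5 passed in 7 of the 41 fits that left out 1 pig each, with the lowest FDR at 0.0600, and SLC25A36 in 3, without Landrace pig 8 (FDR = 0.0963), Landrace pig 9 (0.0999) or Duroc pig 12 (0.0952). With DESeq2 SLC25A5 (0.39) and SLC25A36 (−0.60) were called, and with batch as a number SLC25A36 (−0.53) and SLC25A45 (−0.80). The coefficients of SLC25A3, SLC25A4, SLC25A6, SLC25A12 and SLC25A34 for age lay between −0.02 and 0.18.

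How the carriers varied together was described from the residuals of log2 CPM after the joint model, over the 41 pigs, of which the single pig of batch 1 has a residual of 0 by construction. Over the 561 pairs of the 34 genes the correlation had a median of 0.033 and ran from −0.677 to 0.853. It passed an adjusted permutation p of 0.1 for 39 pairs, 29 positive and 10 negative. The same count was not taken over pairs of all genes, so no background share stands beside it. The permutations treated the 41 residuals as exchangeable, although the joint model left 32 residual degrees of freedom, so the permutation p-values can be too small. The pairs below were chosen after their values were seen. SLC25A3 and SLC25A4, the phosphate and ADP/ATP carriers of muscle, varied most closely together (Pearson r = 0.853, Spearman rho = 0.859, both permutation p = 1e-05, the smallest that 100000 permutations can give, adjusted p = 0.0028). Without the 2 pigs farthest from the median of SLC25A3 r was 0.845, and within batches 2, 3 and 5 it was 0.850, 0.924 and 0.836. SLC25A20 and SLC25A34 had r = 0.787 and rho = 0.833 (both p = 1e-05, adjusted p = 0.0028), with 0.872, 0.513 and 0.811 within the 3 batches.

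SLC25A5 and SLC25A6 had r = 0.573 (p = 0.00011, adjusted p = 0.0103) and rho = 0.611 (p = 9e-05, adjusted p = 0.00721), with 0.467, 0.551 and 0.715 within the batches. SLC25A4 and SLC25A42 had r = 0.575 (p = 7e-05, adjusted p = 0.00785) and rho = 0.549 (p = 0.00027, adjusted p = 0.0126), with 0.476 to 0.789 within the batches. Other pairs went in opposite directions. SLC25A24 and SLC25A33 had r = −0.677 (p = 2e-05, adjusted p = 0.00374) and rho = −0.633 (p = 3e-05, adjusted p = 0.00337), but the relation did not hold in batch 3 (−0.181) and, without adjustment, not in the Duroc pigs (0.044). SLC25A16 and SLC25A39 had r = −0.615 (p = 3e-05, adjusted p = 0.00421) and rho = −0.640 (p = 3e-05, adjusted p = 0.00337), with −0.790, −0.651 and −0.272 within the batches. Without the 2 farthest pigs r was 0.796 for SLC25A20 and SLC25A34, 0.534 for SLC25A5 and SLC25A6, 0.550 for SLC25A4 and SLC25A42, −0.641 for SLC25A24 and SLC25A33 and −0.561 for SLC25A16 and SLC25A39. Batches 1 and 4 held 1 and 5 pigs, too few for a value.

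**Figure D5:**
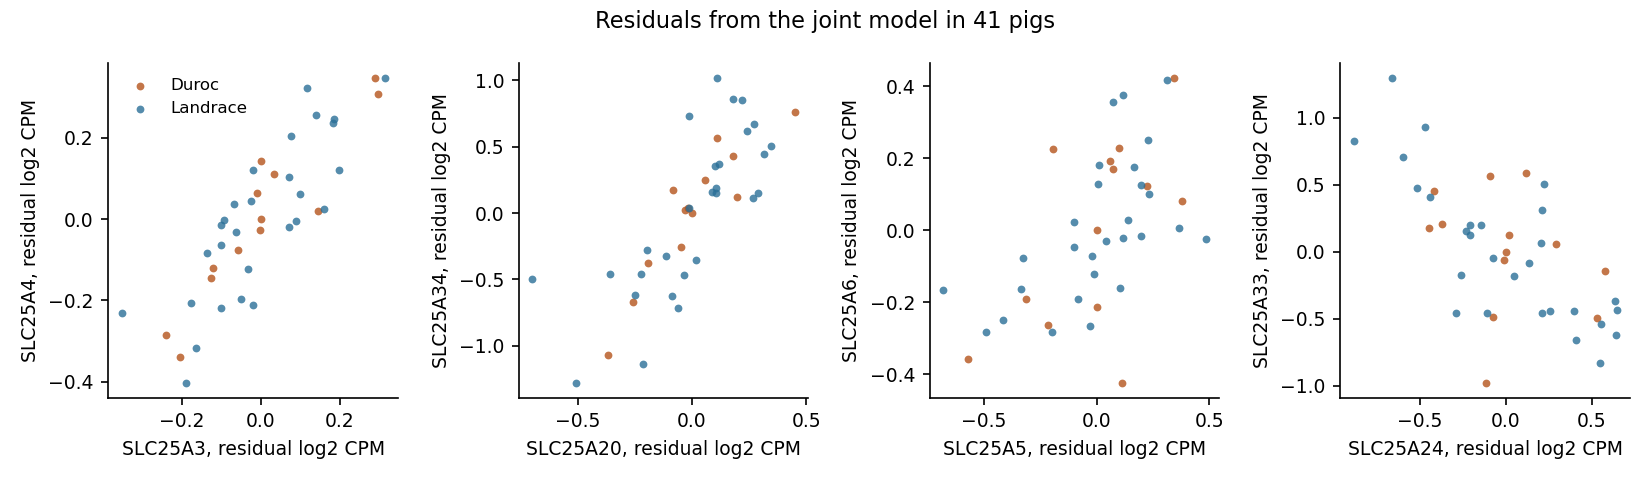
Residual log2 CPM after the joint model of 4 pairs of SLC25 genes, with a point for each of the 41 pigs coloured by breed. SLC25A3 with SLC25A4 (r = 0.853), SLC25A20 with SLC25A34 (0.787) and SLC25A5 with SLC25A6 (0.573) vary in the same direction, and SLC25A24 with SLC25A33 (−0.677) goes the opposite way.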

How the data were processed

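RNA of 41 psoas major samples was sequenced as unstranded paired reads by BGI. The authors used Trimmomatic 0.39 for trimming and STAR 2.7.1a for alignment to Sscrofa11.1 and for counting read pairs per Ensembl gene, so the deposited values are raw whole-number counts, without normalization or filtering. The unstranded column was used. Group, FCR, RIN, age and batch came from the labels, and the methods of the study describe batch as the slaughter day. The methods of the study word FCR as growth divided by feed and its introduction as feed over gain. FCR was read as feed per growth because its values are all above 1, and the sign of every FCR coefficient rests on that reading.

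Symbols came from a table of Ensembl IDs. It named 42 SLC25A genes, of which SLC25A30 was not used here because no row of the files had its ID. SLC25A29, SLC25A37 and SLC25A51 had no Ensembl ID in that table and were not used here, so sums and shares of the family leave them out. Coordinates came from the RefSeq genes of Sscrofa11.1 by symbol.

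Counts were fitted with R 4.3.3 and edgeR 4.0.16 (quasi-likelihood test, legacy form, TMM normalization, filterByExpr with a minimum count of 10, 11146 genes) with FCR per 0.1, RIN, age per 10 days, breed and batch as a factor, giving 32 residual degrees of freedom. FDR is the Benjamini-Hochberg value over all genes tested, with a threshold of 0.1. Tests were two-sided. Levels are CPM with TMM factors, and log2 CPM used a prior count of 2. Alternatives were DESeq2 1.42.0, limma 3.58.1 with voom, other scalings, filters, covariates and counts, and fits without single pigs. The fits were tested on simulated counts first, where the share of false calls was above the FDR threshold for breed with every tool and for FCR with DESeq2. Correlations used Python 3.11.15, NumPy 2.4.6 and 100000 permutations.

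The members and gene lists were chosen with earlier results of these data known. Members are named with values where they had an FDR under 0.1, where they were among the 3 smallest p of a term with few calls or where they had the most counts. A carrier gene and a matrix enzyme enter the counts but are not reported here by name or value. Counts on genes were 22188911 to 25954816 per pig. The precision of genes with few counts is lower, such as SLC25A14 (10 to 28 per pig), SLC25A16 (5 to 60) and SLC25A21 (5 to 27).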

Additional observations from a re-analysis of the deposited data

Results flagged for a closer look

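The strand-specific columns of the deposited tables, which the comparisons above do not use, held more pairs than the unstranded column for 4 carrier genes. SLC25A35 had 18222 pairs over all pigs there and 16 in the unstranded column, with 355 to 523 pairs per Duroc pig and 363 to 566 per Landrace pig. Fitted on the sum of the strand columns, SLC25A35 had a coefficient of −0.30 for RIN (SE 0.070, FDR = 0.000653, edgeR) and 0.14 for breed (SE 0.092, FDR = 0.285). SLC25A39 had 41676 pairs there, with a RIN coefficient of −0.51 (SE 0.080), beside −0.29 in the unstranded column. SLC25A11 had 3947 pairs, with 70 to 141 per Duroc pig and 31 to 139 per Landrace pig, and coefficients of −0.16 for breed and 0.01 for RIN. SLC25A21 had 782 pairs and a breed coefficient of 0.43 (SE 0.21, FDR = 0.138). The part of genes on the other strand in these pairs was not tested.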

How the results depend on the processing

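No paired analysis was possible because the labels give no replicate numbers shared between the breeds. The fits without single pigs and without the 2 libraries with the fewest counts were chosen after seeing the data. The breed count of 17 ranged from 12 (batch left out) to 19 (DESeq2, or pigs with a RIN below 7 left out), and from 14 to 19 in the fits without 1 pig. The direction of the called breed coefficients was the same in all 221 refits of called members under the other alternatives, and 18 of these lost the call. With age left out SLC25A10, SLC25A17 and SLC25A45 lost it, and with RIN left out SLC25A1, SLC25A4 and SLC25A39. The RIN count of 19 was 11 with library size only and 12 without the 2 libraries with the fewest counts, and 16 to 21 in the fits without 1 pig. RIN calls were also lost by SLC25A16 with batch as a number, by SLC25A11 and SLC25A36 with age left out, by SLC25A6, SLC25A11, SLC25A22 and SLC25A38 without a filter and by SLC25A6 and SLC25A38 with the strand columns. SLC25A43, not called for RIN (0.12, FDR = 0.128), gained a call with DESeq2, library size only, a filter of 5 counts, no filter and the strand columns (0.13 to 0.43) and in 24 of the 41 fits without 1 pig. RIN calls were also gained by SLC25A12 and SLC25A13 with library size only, SLC25A15 with batch as a number, SLC25A20 and SLC25A45 with batch left out and SLC25A33 with limma. Without a filter SLC25A31, SLC25A41 and SLC25A48, each with at most 5 counts in any pig, gained a RIN call too. SLC25A16 gained a breed call with age left out (−0.41, FDR = 0.0628) and with library size only (−0.46, FDR = 0.0849). The FCR count was 0 under every alternative run. The age count of 0 became 2 with DESeq2 and 2 with batch as a number, and 0 to 2 in the fits without 1 pig. The cause of these changes was not tested.

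Among the called genes and the 5 with most counts, the following coefficients changed sign. Outside these, the RIN coefficient of SLC25A23 was −0.21 (FDR = 0.0165) with batch left out and 0.19 (FDR = 0.0235) with library size only, called in opposite directions, while the joint model with TMM did not call it (FDR = 0.227). Under library size only, the RIN coefficient was 0.085 for SLC25A38, 0.099 for SLC25A26, 0.158 for SLC25A34, 0.014 for SLC25A39 and 0.068 for SLC25A6. Under the same scaling the FCR coefficient was 0.0038 for SLC25A4, 0.042 for SLC25A12, 0.013 for SLC25A3 and 0.022 for SLC25A6, and the age coefficient 0.047 for SLC25A4 and 0.056 for SLC25A3. The age coefficients of SLC25A4 and SLC25A3 were 0.026 and 0.061 with batch as a number and 0.039 and 0.059 with batch left out. The breed coefficient of SLC25A3 was 0.038 with RIN left out, the FCR coefficient of SLC25A12 0.0043 with age left out, and the RIN coefficient of SLC25A11 0.0075 with the strand columns. The RIN coefficient of SLC25A12 was −0.075 without the pigs with a RIN below 7 and −0.103 without the 2 libraries with the fewest counts. The age coefficient of SLC25A34 was −0.0039 with RLE size factors, −0.0066 without a filter, −0.00077 with DESeq2, −0.028 with limma, −0.017 with RIN left out, −0.083 with batch as a number and −0.021 without the 2 libraries.

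Over the fits without 1 pig, the FCR coefficient ran from −0.041 to 0.016 for SLC25A12 and from −0.00095 to 0.140 for SLC25A34. The RIN coefficient of SLC25A12 ran from −0.018 to 0.101 and the breed coefficient of SLC25A3 from −0.135 to 0.0028. The age coefficient ran from −0.051 to 0.084 for SLC25A3, from −0.077 to 0.091 for SLC25A34 and from −0.072 to 0.099 for SLC25A4. Depth limits the genes with few counts, such as SLC25A16 and SLC25A21, whose lowest pigs had 5 counts.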

Other observations

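Genes that bring carrier proteins into the inner membrane were described beside the carriers. Of 12 tested import genes 9 were called for RIN and all 9 fell, among them TOMM40 (−0.62 per unit), TOMM7 (−0.62), TIMM13 (−0.62), TIMM22 (−0.52) and TIMM10B (−0.72), against 51.8% of all genes called and 27.9% falling. With library size only 5 of the 12 fell and 4 rose. TOMM40 is the pore of the outer membrane and TIMM22 that of the inner membrane through which carriers enter. Of the 22 tested matrix and shuttle enzymes 15 were called for RIN, 9 falling and 6 rising against 27.9% and 23.9% of all genes, with CS (−0.31), GPD1 (−0.40) and BCAT2 (−0.37) among those falling and GPD2 (0.45) among those rising. With library size only 11 of the 22 rose and none fell. For FCR no gene of either list was called. GPD1 had the smallest p among the 22 enzymes, with −0.18 per 0.1 of FCR (p = 0.00045, FDR = 0.437).

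Single pigs stood far from the rest for some carriers. SLC25A36 had 71.1 CPM in Duroc pig 8 and 69.2 CPM in Duroc pig 13, beside a median of 15.6 CPM over all pigs. SLC25A13 had 7.89 CPM in Duroc pig 8 and 7.01 CPM in Landrace pig 8, beside a median of 2.45 CPM. SLC25A45 had 21.1 CPM in Landrace pig 24 and 17.4 CPM in Landrace pig 27, beside a median of 6.47 CPM. SLC25A24 had 55.9 CPM in Duroc pig 2, beside a median of 19.6 CPM. SLC25A25 differed 11.7-fold and SLC25A34 6.13-fold between the highest and the lowest pig, while SLC25A46 (1.92-fold), SLC25A43 (1.93-fold) and SLC25A3 (1.99-fold) differed least among the 34 genes.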
